A study of Mus musculus with 60 samples.

Results

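Claudins and tight junction genes were followed in cultured mouse fibroblasts, as 9 genes (Cldn1, Cldn3, Cldn4, Cldn6, Cldn7, Ocln, F11r, Tjp1 and Tjp3) of the 56980 listed in both gene count tables of the series. The 9 were chosen by name, and each was found as 1 row of either table. Tight junctions seal the space between neighbouring epithelial or endothelial cells. Claudins are the membrane proteins that form the sealing strands and set which ions pass, occludin (Ocln) and the junctional adhesion molecule JAM-A (F11r) are further membrane proteins of the junction, and the zonula occludens proteins ZO-1 (Tjp1) and ZO-3 (Tjp3) anchor them to the actin cytoskeleton. Fibroblasts are mesenchymal cells that form no such seal, although ZO-1 is also found at their adhesive contacts, and a gain of claudins and E-cadherin is part of the mesenchymal to epithelial transition that opens cellular reprogramming.

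The series asked how partial reprogramming and inhibitors of the TGFb pathway act on fibroblasts that lack normal DNA repair. In the reprogramming table, 36 libraries covered 12 groups of 3 from tail tip fibroblasts. The D/KO cells (4FJ_ERCC1_(d/-), male, 8 weeks) carried 1 truncated and 1 null allele of Ercc1, a DNA repair endonuclease subunit, and the WT cells (4FJ_(+/-)_OCT4-GFP, female, 22 weeks) an Oct4 reporter. Both lines carried a cassette of Oct4, Sox2, Klf4 and c-Myc under doxycycline control, so the cassette was also present at day 0, but it came from different mouse lines, and genotype, line, sex and age cannot be told apart. Cells were taken before doxycycline (day 0, D0) and 2 or 4 days into it (D2 and D4, at 2 µg/ml), either alone or with VC, that is 50 µg/ml ascorbic acid (vitamin C) plus 3 µM CHIR-99021, an inhibitor of GSK3. Groups with VC are written D0+VC, D2+VC and D4+VC. No culture kept to day 2 or 4 without doxycycline is given, so doxycycline and days in culture cannot be told apart. How long the D0+VC cells had been in VC is not given. The inhibitor table held 24 libraries in 8 groups of 3. In it, D/KO tail tip fibroblasts (ERCC1_(d/-), female, 4 weeks) were left as a control or given for 3 days an ALK5 inhibitor (0.1 µM Repsox or 1 µM A83-01), Vactosertib (0.1 µM), which the study lists as acting on both ALK5 and ALK2, or the ALK2 inhibitor DMH-1 (1 µM). ALK5 is the type I receptor of TGFb, and ALK2 is a type I receptor of BMP signals. The remaining groups were control WT fibroblasts (ERCC1_(+/+)_WT, female, 14 weeks) from tail tip or from skin, and tail tip fibroblasts of the reprogrammable WT genotype (4FJ_(+/-)_OCT4-GFP, female, 22 weeks) whose treatment label reads TGFB, with no dose, time or matched control given. WT and D/KO controls of the inhibitor table differ in age, so genotype and age cannot be told apart there either. All cells had been passaged 3 times or less at 3% oxygen. Nothing says that the 3 libraries of a group were separate cultures or mice, so p-values measure the spread between these libraries, which may be technical.

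A reprogramming library summed to between 16538374 and 18484951 counts, and an inhibitor library to between 17102639 and 30599138. Levels are given as raw counts or as CPM, the usual depth-normalised read count, after TMM scaling. Differences were tested with edgeR's quasi-likelihood F-test, with Benjamini-Hochberg adjustment over all genes tested in a comparison, and a gene was called at an adjusted p under 0.05. Ercc1 itself, whose truncated allele is still transcribed, lay between 8.04 and 18.6 CPM in the 18 D/KO reprogramming libraries and between 16.9 and 29.1 CPM in the 18 WT ones, and it overlapped between genotypes in the inhibitor table. Fibroblast markers were high in every library (33140 to 253200 summed CPM of 10 genes such as Col1a1, Col1a2 and Vim). Endothelial, keratinocyte and simple epithelial markers were also read in some groups, and values of them are given beside several of the results.

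Levels were compared between members per kilobase of exon. Together Tjp1 and F11r carried most of the summed signal of the 9 genes, with Tjp1 at 34.7% to 96.0% and F11r at 1.18% to 60.8% of it over the 20 groups. Cldn1 held 0.111% to 11.9%, and at WT day 0 it was above F11r (9.14% against 4.14%). At D/KO D4+VC the levels were 39.6 CPM per kb for Tjp1, 28.6 for F11r, 2.14 for Cldn3 and 0.842 for Cldn1. At WT day 0 they were 19.9 CPM per kb for Tjp1, 2.13 for Cldn1 and 0.9645 for F11r, while Cldn3 was listed at 0.

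Not all members could be tested. Cldn1, F11r and Tjp1 passed the filter on low counts through most groups, and Ocln passed it through only some. Cldn3 passed it in the reprogramming table only through D/KO D4+VC, and Cldn4 passed it in the fit of all 24 inhibitor libraries only through the libraries labelled TGFB, so that for both a difference between those libraries and the others was built into their being tested. Cldn6, Cldn7 and Tjp3 passed in neither table, and for these, and for Cldn3 and Cldn4 elsewhere, only counts are given.

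In GRCm39, the build of the counts, Cldn3 (ENSMUSG00000070473) lies at chr5:135015068-135016326 on the plus strand and Cldn4 (ENSMUSG00000047501) at chr5:134973973-134975788 on the minus strand, and each is a single exon, of 1259 and 1816 bases. Cldn1 (ENSMUSG00000022512) lies at chr16:26175392-26190591 on the minus strand, F11r (ENSMUSG00000038235) at chr1:171265103-171292171 on the plus strand and Tjp1 (ENSMUSG00000030516) at chr7:64945913-65177529 on the minus strand. Exons of Tjp3 overlap those of Apba3 on the other strand, a gene with up to 1629 counts in a library, and the strandedness of the counting is not given in the sources used here, so that Tjp3 reads cannot be told from Apba3 reads. The overlap of Cldn3 with Wbscr25 weighs little, since Wbscr25 had at most 3 counts in any library.

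The promoters of 3 claudins and F11r are shown because Snail and Zeb factors, repressors of epithelial genes that are measured here too, bind the E-box CACCTG. Each window begins upstream of the start site and ends shortly after it, on the gene's strand, in the RefSeq annotation of GRCm38.p6, an earlier build than that of the counts. They are chr16:26371790-26372089 for Cldn1, chr5:134985964-134986263 for Cldn3, chr5:134946885-134947184 for Cldn4 and chr1:171437311-171437610 for F11r. Capitals mark CACCTG or its reverse complement.
Cldn1: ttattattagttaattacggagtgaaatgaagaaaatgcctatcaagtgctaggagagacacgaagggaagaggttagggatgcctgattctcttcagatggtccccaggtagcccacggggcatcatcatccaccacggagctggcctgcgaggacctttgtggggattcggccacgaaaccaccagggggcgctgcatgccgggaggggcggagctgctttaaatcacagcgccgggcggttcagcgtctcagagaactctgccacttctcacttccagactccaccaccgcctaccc
Cldn3: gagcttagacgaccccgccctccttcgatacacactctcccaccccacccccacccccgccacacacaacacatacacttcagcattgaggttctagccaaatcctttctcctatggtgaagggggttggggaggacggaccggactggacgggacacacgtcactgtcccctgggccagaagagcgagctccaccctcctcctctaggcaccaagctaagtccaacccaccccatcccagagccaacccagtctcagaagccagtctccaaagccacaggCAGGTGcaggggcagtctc
Cldn4: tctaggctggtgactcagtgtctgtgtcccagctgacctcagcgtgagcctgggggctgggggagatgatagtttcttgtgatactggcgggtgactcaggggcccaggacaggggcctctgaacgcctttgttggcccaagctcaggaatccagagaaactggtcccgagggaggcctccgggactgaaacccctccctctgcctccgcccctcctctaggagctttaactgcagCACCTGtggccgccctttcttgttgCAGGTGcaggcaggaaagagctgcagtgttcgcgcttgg
F11r: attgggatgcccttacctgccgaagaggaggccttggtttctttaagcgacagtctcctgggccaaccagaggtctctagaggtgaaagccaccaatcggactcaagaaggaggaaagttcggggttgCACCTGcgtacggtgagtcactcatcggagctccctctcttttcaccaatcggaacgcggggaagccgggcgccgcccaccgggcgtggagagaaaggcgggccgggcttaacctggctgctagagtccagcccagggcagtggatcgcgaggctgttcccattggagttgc

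The E-box was found in a promoter window of 7 of the 9 members (Cldn3, Cldn4, Cldn6, Cldn7, F11r, Ocln and Tjp3, but not Cldn1 or Tjp1), and in 20.2% of the 32851 promoter windows of all genes. Some members have more than 1 window (12 windows for the 9 genes), which gives them more chances of a match. The match lay at -122 in F11r, at -14 and 11 in Cldn4 and at 31 in Cldn3, counted from the start site. Of the other motifs searched on both strands, CCACCC (a Klf box, in 31.5% of all windows) was found in 5 members and CAGACA (a Smad box, 21%) in Cldn4 and Tjp3. TGANTCA (AP-1, 7.81%) was found in Cldn4 and F11r, and the short GC box GGCGGGG (23.5%) was found in Cldn3, Ocln and Tjp1. The longer form GGGGCGGGG (11.4%), which contains the short one, was found in Ocln and Tjp1. AACCNGTT (grainyhead-like, 2.09%), CTTTGA (TCF/LEF, 16%) and GTCTAGAC (a palindromic Smad element, 0.213%) were found in no member window. A match is a string of letters and not a site shown to be bound, and the motifs were chosen with the expression values known.

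**Figure D1:**
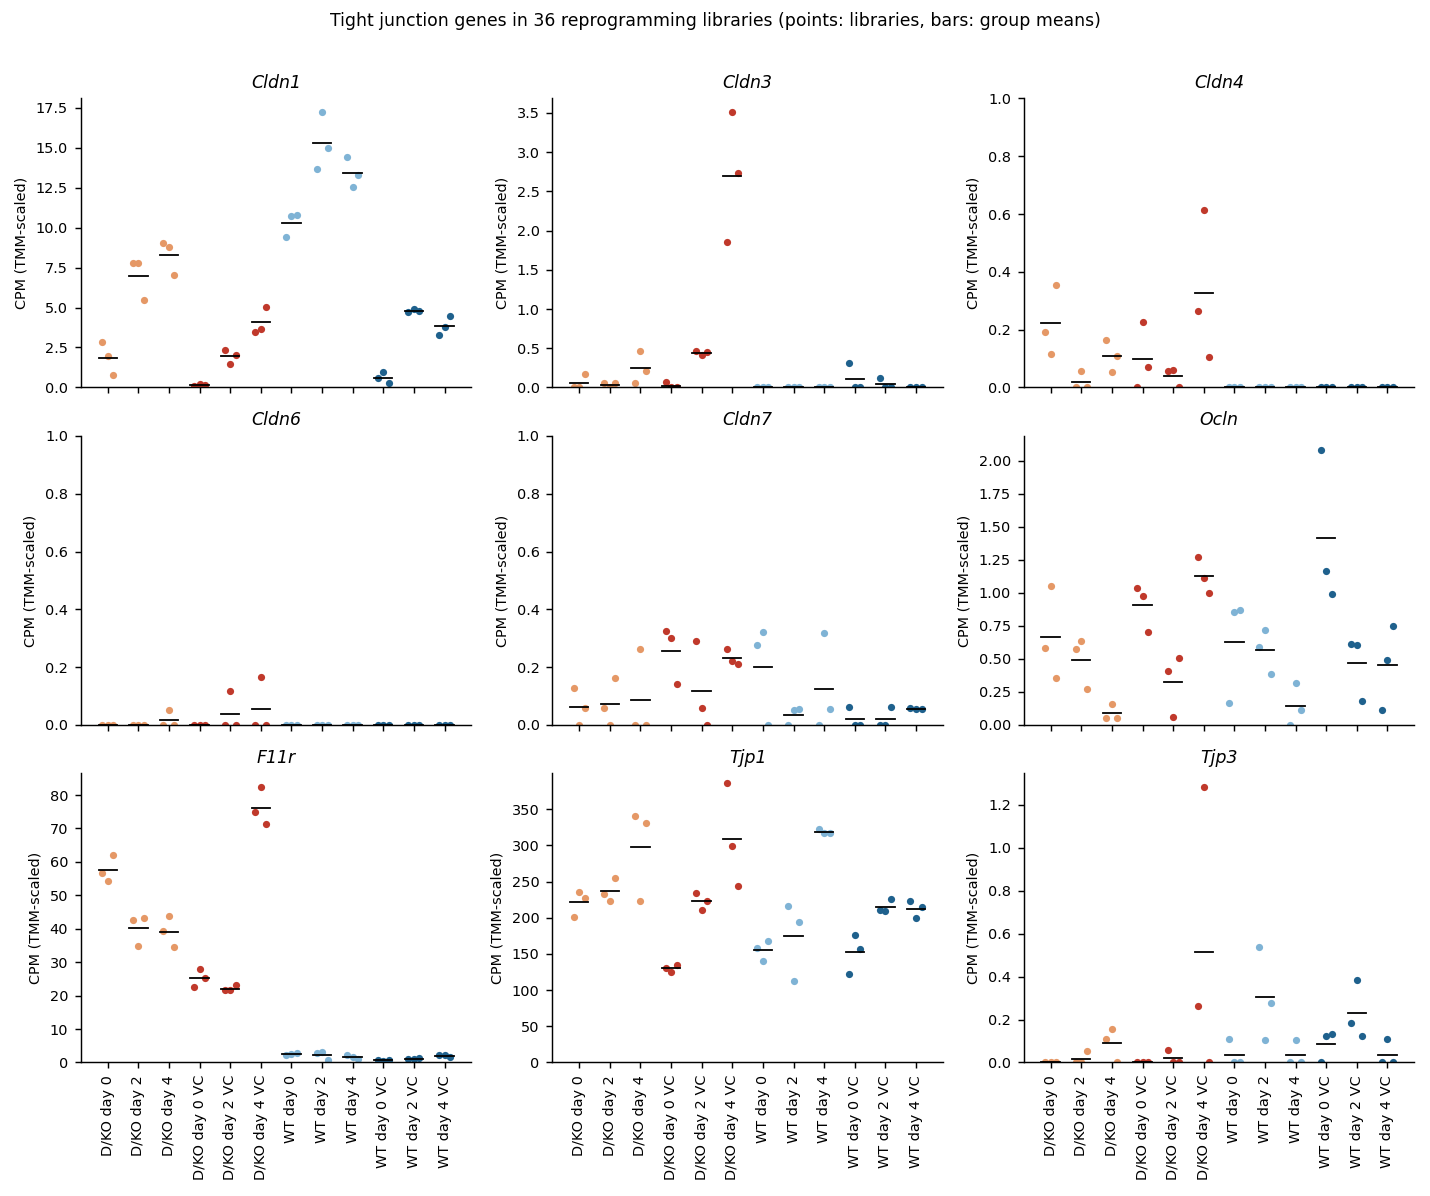
CPM (TMM-scaled, linear axis) of the 9 genes in the 36 reprogramming libraries; points are libraries and bars are means of 3, with a separate axis for each gene. Cldn3 reaches 3.51 CPM and F11r 82.4 CPM in D/KO D4+VC, the highest libraries of each, whereas Cldn1 is highest in WT cells without VC.

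Cldn1, a claudin of epithelial barriers such as the epidermis, was lower with VC at day 0 and higher after days of doxycycline in D/KO cells. In D/KO cells without VC the libraries held 44, 33 and 13 counts at day 0, 135, 134 and 100 at day 2, and 166, 168 and 130 at day 4. Each day 2 and day 4 library lay above every day 0 library, and days 2 and 4 overlapped in CPM. The change from day 0 was a log2 fold change of 1.93 ± 0.27 (SE) at day 2 and 2.17 at day 4 (edgeR adjusted p = 5.81e-07 and 2.45e-08). Over the same days the keratinocyte marker sum went from 17.5 to 25.8 CPM at day 0 to 333.2 to 373.1 at day 2 and 599.3 to 734.1 at day 4. Most of that sum was Itgb4 (316.7 to 349.9 CPM at day 2 and 555.7 to 690.9 at day 4). Krt14 reached 37.8 to 54.0 CPM at day 4, while Krt5 stayed at 0.651 or less and Krt10 overlapped its day 0 range. The fibroblast sum went from 80120 to 119100 at day 0 to 37410 to 39040 at day 4. The part of these markers in the result was not tested. WT cells started higher, with 170, 200 and 211 counts at day 0, and stayed high, with 254, 335 and 272 at day 2 and 282, 237 and 241 at day 4. The WT changes of 0.57 and 0.38 did not pass the test (edgeR adjusted p = 0.105 and 0.225), although every WT library after doxycycline was above every WT day 0 library, and the day 2 change was called by DESeq2 and by a fit of these groups alone. At day 0 D/KO cells held less Cldn1 than WT cells, by a log2 difference of -2.49 (edgeR adjusted p = 1.63e-09). In these bulk samples fewer cells of a type and less RNA per cell cannot be told apart.

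With VC the starting level of Cldn1 was near 0. D/KO D0+VC held 1, 3 and 2 counts and WT D0+VC 9, 16 and 4. In either genotype all libraries with VC lay below all day 0 libraries without it. The log2 fold change of VC at day 0 was -3.64 in D/KO and -4.06 in WT cells (edgeR adjusted p = 5.4e-07 and 1.87e-12). Fibroblast markers moved the other way, from 80120 to 119100 summed CPM at D/KO day 0 to 183700 to 253200 with VC, and their part in the result was not tested.

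From that low level Cldn1 rose over the days of doxycycline in both genotypes. D/KO libraries with VC held 40, 25 and 36 counts at day 2 and 66, 66 and 96 at day 4, and WT libraries 77, 89 and 79, then 56, 69 and 83. Against D0+VC, the log2 fold changes were 3.73 at day 2 and 4.796 at day 4 in D/KO cells (edgeR adjusted p = 9.12e-08 and 2.03e-11), and 2.96 and 2.63 in WT cells (edgeR adjusted p = 5.83e-09 and 4.8e-08). With 6 counts in the 3 D/KO day 0 libraries, the ratio of CPM at day 4 was 29.2 with a counting interval of 13.2 to 80.5. The baseline decides the size and, in WT cells, the direction. Against day 0 without VC the D/KO change was 0.08 at day 2, which lost its call, and 1.15 at day 4, while the WT changes were -1.10 and -1.42. VC also lowered Cldn1 at matched days of doxycycline, with log2 differences for D/KO of -1.85 (D2) and -1.02 (D4), and for WT of -1.67 (D2) and -1.80 (D4). In D/KO cells with VC the level rose further from day 2 to day 4 (1.07, edgeR adjusted p = 0.00487). The keratinocyte sum, mostly Itgb4 at D4+VC, was 12.6 to 16.7 CPM at D/KO D0+VC and 1690 to 1995 at D/KO D4+VC. In WT cells it was 11.3 to 12.3 and 318.1 to 359.1. The fibroblast sum was 183700 to 253200 and 33140 to 34340 in D/KO cells, and 155700 to 171400 and 60950 to 72040 in WT cells. The part of these markers in the result was not tested.

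The rise of Cldn1 was larger in D/KO than in WT cells when the difference of the changes was itself tested. Without VC the excess (log2) was 1.36 ± 0.35 for D2 and 1.79 ± 0.35 for D4, with edgeR adjusted p = 0.0128 and 0.000364. Without D/KO day 0 library 3, which had 13 counts, the day 2 difference was 0.98 and no longer called. With VC it was 0.77 for D2 (edgeR adjusted p = 0.519) and 2.16 for D4 (edgeR adjusted p = 0.0134), and the day 4 call was lost without D/KO D0+VC library 1 or without WT D0+VC library 2 (range 1.63 to 2.60 over the libraries left out). In order of mean CPM (± SD, n = 3), the groups were WT day 2 (15.3 ± 1.79), WT day 4 (13.4 ± 0.941), WT day 0 (10.3 ± 0.791), D/KO day 4 (8.27 ± 1.09), D/KO day 2 (6.997 ± 1.34), WT D2+VC (4.81 ± 0.0867), D/KO D4+VC (4.07 ± 0.856), WT D4+VC (3.84 ± 0.607), D/KO D2+VC (1.94 ± 0.423), D/KO day 0 (1.85 ± 1.04), WT D0+VC (0.606 ± 0.36) and D/KO D0+VC (0.144 ± 0.0807). Neighbours whose libraries overlapped were the first pair, the D/KO day 4 and day 2 groups, the run from WT D2+VC to WT D4+VC, and the run from D/KO D2+VC to WT D0+VC.

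Cldn3, a claudin of simple epithelia, appeared in D/KO cells with VC. The 3 libraries held 1, 0 and 0 counts at D0+VC, 8, 7 and 8 at D2+VC, and 35, 63 and 52 at D4+VC. No library of one day overlapped another. Without VC the D/KO counts were 0, 0 and 3 at day 0, 1, 0 and 1 at day 2, and 1, 9 and 4 at day 4. The WT cells held 0 counts in 16 of 18 libraries, and the other libraries held 5 (D0+VC) and 2 (D2+VC).

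Since Cldn3 entered the fit only through D/KO D4+VC, the comparisons with that group are given as ratios of CPM with counting intervals and no p-value. D4+VC was 115 times D0+VC (20.4 to 4589, with a single count at D0+VC), 10.8 times day 4 without VC (6.22 to 20.2) and 6.08 times D2+VC (3.90 to 9.88). Compared with WT D4+VC, where all libraries were at 0, it was at least 48.4-fold higher. These intervals and floors (3 counts over a group) cover counting error only. D2+VC, whose 3 libraries lay below the filter, was 19.0 times D0+VC (3.09 to 782.5) and 11.7 times day 2 without VC (2.89 to 102.4). The calls that edgeR made for these 2 differences were not made by DESeq2. The first was also lost without D/KO D0+VC library 2 or 3, and the second when any of its 6 libraries was left out.

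Some epithelial markers rose beside Cldn3 in D/KO cells with VC. The summed CPM of 6 simple epithelial markers ran from 1.81 to 3.30 at D/KO D0+VC, from 15.1 to 23.0 at D2+VC and from 246.9 to 280.8 at D4+VC, where none was at 0. Krt8 (119.5 to 152.7 CPM), Krt19 (72.4 to 84.1) and Cdh1 (42.0 to 48.4), which encodes E-cadherin, made up most of it, while Krt18 stayed at 0.211 to 1.78 and Epcam at 0.846 or less. The 9 keratinocyte markers found summed to 12.6 to 16.7 CPM at D/KO D0+VC and to 1690 to 1995 at D4+VC, nearly all of it Itgb4 (1259 to 1594) and Krt14 (286.3 to 421.5), with Krt15 at 0 and Krt5 at 0.264 to 0.669. Krt10 was lower at D4+VC (3.62 to 4.40 CPM at D0+VC, then 1.39 to 2.37). Of the simple epithelial markers Krt7 overlapped (0.130 to 0.491, then 0.105 to 0.317). At D/KO day 4 without VC, where Cldn3 held 1, 9 and 4 counts, the keratinocyte sum was 599.3 to 734.1. In WT cells it was 11.3 to 12.3 at D0+VC, where Cldn3 held 5, 0 and 0 counts, and 318.1 to 359.1 at D4+VC, where Cldn3 had no count. In WT D4+VC the simple epithelial sum was 4.95 to 6.74. The part of these cells or genes in the Cldn3 result was not tested.

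The remaining claudins stayed at 11 counts or fewer in every reprogramming library. Cldn4, a neighbour of Cldn3 on chromosome 5 and a claudin of tight epithelia, held 3, 2 and 6 counts at D/KO day 0, 0, 3 and 1 at D/KO D0+VC and 5, 11 and 2 at D/KO D4+VC. The last 2 groups overlapped, and their ratio was 3.46 with a counting interval of 1.14 to 14.1. All 18 WT reprogramming libraries held 0 counts of Cldn4. Cldn6, a claudin of embryonic epithelium and pluripotent cells, summed to 6 counts over 36 libraries, all in D/KO cells after doxycycline, and to 7 counts over the 24 inhibitor libraries. Cldn7, a claudin found along the whole lateral membrane of epithelial cells, had at most 6 counts in a reprogramming library and 9 in an inhibitor library. For Cldn6 and Cldn7 a change at D/KO D4+VC was not detectable at this depth (Cldn7 ratio to D0+VC 0.909, 0.376 to 2.24).

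F11r (JAM-A), an adhesion protein of the immunoglobulin family found on epithelial and endothelial cells, platelets and leukocytes, separated the genotypes in every group of the reprogramming table. At day 0 it held 877, 926 and 1051 counts in D/KO and 41, 49 and 55 in WT cells, a log2 difference of 4.48 ± 0.20 (edgeR adjusted p = 2.19e-19). The lowest of the 18 D/KO libraries (21.6 CPM) lay above the highest of the 18 WT libraries (3.08 CPM). Because genotype, line, sex and age change together, these cannot be told apart.

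Within D/KO cells F11r fell with VC and then rose at D4+VC. Day 0 plus VC held 350, 372 and 362 counts, D2+VC 373, 366 and 412, and D4+VC 1419, 1478 and 1354. The first 2 groups overlapped in CPM, and D4+VC lay above all the other reprogramming libraries. VC lowered F11r at day 0 by -1.18 (log2, edgeR adjusted p = 6.95e-07), and against that baseline day 2 changed by -0.20 (edgeR adjusted p = 0.352) and day 4 by 1.59 ± 0.17 (edgeR adjusted p = 3.34e-10). Between days 2 and 4 the rise was 1.79 (edgeR adjusted p = 3.3e-10). Against day 0 without VC, D4+VC was still higher, by 0.40, and D2+VC was lower, by -1.38.

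Without VC F11r fell in D/KO cells, to 739, 600 and 791 counts at day 2 and 722, 838 and 638 at day 4. All 6 libraries lay below the day 0 libraries in CPM and overlapped between the days. The log2 fold changes were -0.52 and -0.56 (edgeR adjusted p = 0.0138 and 0.00574), and the first call was lost without D/KO day 0 library 3 or D/KO day 2 library 2. At matched days VC gave a log2 difference of -0.86 at day 2 and 0.96 at day 4 in D/KO cells, so its direction turned between these days. In mean CPM (± SD, n = 3) the D/KO groups ran from D4+VC (76.2 ± 5.62) through day 0 (57.6 ± 3.92), day 2 (40.1 ± 4.63), day 4 (39.1 ± 4.68) and D0+VC (25.4 ± 2.68) to D2+VC (22.1 ± 0.823), and of these neighbours only days 2 and 4, and the last pair, overlapped.

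In WT cells F11r was far lower. With VC the counts were 12, 9 and 9 at day 0, 19, 17 and 20 at day 2, and 36, 38 and 28 at day 4, with no overlap. The log2 fold change was 1.56 for D4+VC (edgeR adjusted p = 0.000218) and 0.78 for D2+VC (edgeR adjusted p = 0.116). Against day 0 without VC both turned, to -1.22 at day 2 and -0.44 at day 4, since VC alone gave -2.004 at day 0 (edgeR adjusted p = 5.45e-06). At day 2 VC lowered F11r by -1.02 (edgeR adjusted p = 0.00682), a call lost without WT day 2 library 2. Without VC the WT changes of -0.20 and -0.60 were not called (edgeR adjusted p = 0.676 and 0.0783). No difference between the D/KO and WT changes was called at either day, with or without VC. With VC the difference was -0.98 at day 2 (95% interval -1.80 to -0.16, edgeR adjusted p = 0.108) and 0.03 at day 4 (-1.23 to 1.29).

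**Figure D2:**
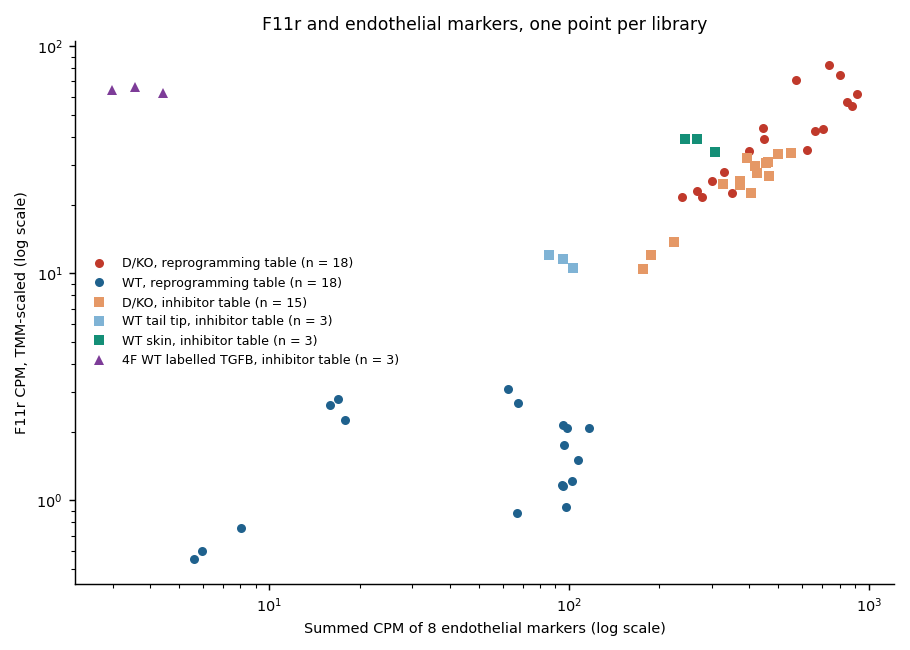
F11r CPM against the summed CPM of 8 endothelial markers, both on log axes, 1 point per library of both tables, with symbols for genotype and source. D/KO libraries lie at the upper right with sums of 177.1 or more, and the 3 libraries labelled TGFB lie apart, with F11r at 62.2 to 66.2 CPM and sums of 3.00 to 4.40.

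Endothelial markers (Pecam1, Cdh5, Cldn5, Kdr, Tek, Tie1, Emcn and Egfl7) were read beside F11r in D/KO cells. Their sum was 848.5 to 915.5 CPM at day 0, 622.9 to 702.9 at day 2, 399.4 to 446.1 at day 4, 300.0 to 349.5 at D0+VC, 238.8 to 277.5 at D2+VC and 573.9 to 801.3 at D4+VC. The markers did not move as one. From D0+VC to D4+VC 3 of the 8 were higher, Pecam1 (69.7 to 79.0, then 211.2 to 288.5 CPM), Tie1 (48.1 to 56.9, then 184.0 to 284.7) and Tek (7.77 to 10.0, then 94.8 to 125.4). Lower at D4+VC were Cdh5 (82.5 to 116.1, then 61.0 to 79.1), Emcn (30.7 to 39.2, then 4.65 to 5.46), Egfl7 (21.5 to 35.6, then 3.40 to 6.69) and Cldn5, the claudin of endothelial junctions (8.77 to 9.87, then 0.263 to 1.06), while Kdr overlapped (15.7 to 18.5, then 10.8 to 16.4). Without VC Tek went from 28.2 to 32.1 CPM at day 0 to 112.3 to 122.5 at day 4, where F11r was lower than at day 0. In WT cells the sum was 15.9 to 17.95 at day 0 and 98.3 to 116.2 at D4+VC, where Tek made up 97.8 to 115.4 and Cldn5, Kdr, Tie1 and Emcn were at 0. Leukocyte markers, 7 in number, summed to 12.8 to 13.1 CPM at D/KO day 0, 10.0 to 12.9 at D/KO D0+VC and 4.51 to 5.53 at D/KO D4+VC. In WT cells they summed to 71.7 to 135.2 at day 0 and 37.6 to 42.3 at D4+VC. The part of endothelial or leukocyte cells or genes in the F11r result was not tested.

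Ocln, the tetraspan protein occludin, was sparse in all groups, with 0 to 33 counts in a reprogramming library. Without VC it held 9, 18 and 6 counts at D/KO day 0 and 1, 3 and 1 at D/KO day 4, and in WT cells 3, 16 and 17 at day 0 and 0, 6 and 2 at day 4. The D/KO groups did not overlap and the WT groups did. It fell by day 4 in both genotypes, with log2 fold changes of -2.80 and -2.11 (edgeR adjusted p = 0.0069 and 0.0416). The D/KO call was lost without D/KO day 0 library 2, and the WT call without WT day 0 library 2 or 3 or WT day 4 library 1 or 3. With VC the D/KO libraries held 16, 13 and 10 counts at day 0, 7, 1 and 9 at day 2 and 24, 20 and 19 at day 4, so that day 4 was above day 4 without VC by 3.56 (edgeR adjusted p = 0.00054) and close to its own day 0 (0.31, 95% interval -0.92 to 1.55). In WT cells with VC the counts of 33, 19 and 15 at day 0 and 2, 9 and 14 at day 4 gave -1.61 (edgeR adjusted p = 0.037), a call lost without WT D0+VC library 1 or WT D4+VC library 1 or 2, with no filter, and against day 0 without VC (-0.46). The difference between the genotypes in these changes was not called at any day (edgeR adjusted p = 0.0975 at day 4 with VC, the lowest).

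Tjp1 (ZO-1), the scaffold that links claudins and occludin to actin, was the most abundant member per kilobase in each reprogramming group and rose by day 4 in both genotypes, with and without VC. In D/KO cells with VC it was 130.7, 124.9 and 135.0 CPM at day 0, 234.2, 210.9 and 222.5 at day 2, and 385.8, 298.7 and 243.7 at day 4, with no overlap. The log2 fold changes were 0.77 and 1.25 ± 0.16 (edgeR adjusted p = 0.000166 and 4.96e-08). Against day 0 without VC they were 0.01, which lost its call, and 0.48, since VC alone lowered Tjp1 at D/KO day 0 by -0.77 (edgeR adjusted p = 0.000434). The rise of 0.48 from day 2 to day 4 with VC (edgeR adjusted p = 0.0399) lost its call without D/KO D4+VC library 1 or 2 or any library of D2+VC. Without VC, D/KO day 0 (201.2, 236.1 and 226.8 CPM) and day 4 (340.7, 223.6 and 330.5) overlapped, and the log2 fold change of 0.43 (edgeR adjusted p = 0.0336) lost its call without D/KO day 0 library 1 or 3 or D/KO day 4 library 1 or 3.

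In WT cells the largest rise of Tjp1 came without VC. Day 0 was 158.4, 140.7 and 167.9 CPM, day 2 216.0, 113.2 and 194.4, and day 4 322.5, 316.5 and 316.9. Only day 4 stood clear of the others, by 1.03 (edgeR adjusted p = 7.2e-06) against day 0 and 0.87 (edgeR adjusted p = 0.000339) against day 2. With VC the changes from day 0 were 0.50 and 0.48 (edgeR adjusted p = 0.0185 and 0.0147), both lost without WT D0+VC library 1 and the first also without WT D2+VC library 3, and D4+VC lay below day 4 without VC by -0.58 (edgeR adjusted p = 0.00685). The rise at day 4 with VC was larger in D/KO than in WT cells by 0.76 ± 0.23 (edgeR adjusted p = 0.0106). That excess rests on the D0+VC baseline, which differed from day 0 without VC by -0.77 for D/KO but by -0.03 for WT. Against day 0 without VC the D4+VC changes were 0.48 (D/KO) and 0.45 (WT). Without VC the difference of -0.60 was not called (edgeR adjusted p = 0.0725), but it was called with no filter and in a fit of those groups alone. At day 0 Tjp1 was higher in D/KO than in WT cells by 0.51 (edgeR adjusted p = 0.0109). Tjp3 (ZO-3), a scaffold restricted to epithelia, held 5, 23 and 0 counts at D/KO D4+VC, no count at D/KO D0+VC, and 10, 2 and 5 at WT day 2, with the overlap with Apba3 given above.

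**Figure D3:**
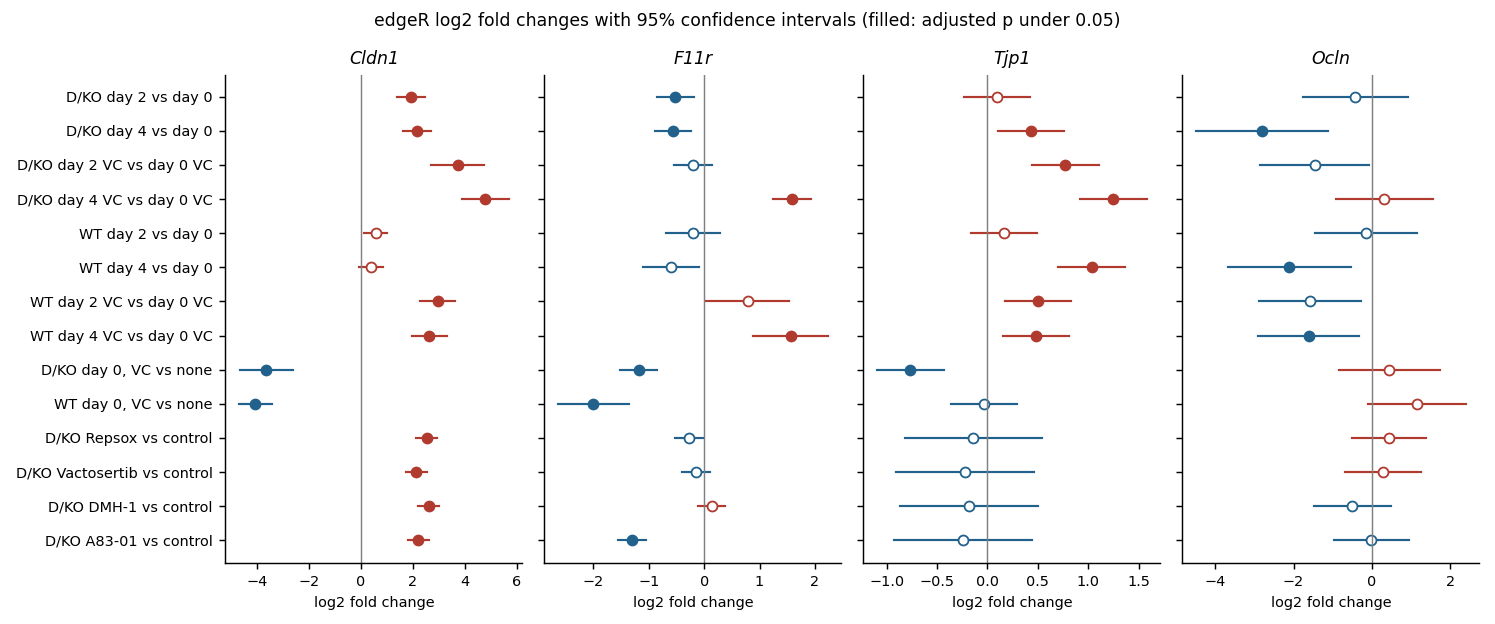
Log2 fold changes of Cldn1, F11r, Tjp1 and Ocln (points, edgeR) with 95% confidence intervals (lines) for 14 comparisons of 3 against 3 libraries; filled points had an adjusted p under 0.05, and red and blue mark values above and below 0. The Cldn1 intervals lie above 0 for all 4 inhibitors, and that of F11r lies below 0 for A83-01 and reaches close to 0 for Repsox (-0.52 to -0.03).

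The number of members called is set against the share of all tested genes called in the same comparison. Of the 9 genes 5 were tested in the reprogramming table. Against day 0 of the same arm, 2 were called in D/KO cells at day 2 (27.4% of all tested genes were called), 4 at day 4 (37%), 3 at D2+VC (47.4%) and 4 at D4+VC (54.1%). In WT cells none was called at day 2 (10.6%), 2 at day 4 (24.5%), 2 at D2+VC (27.5%) and 4 at D4+VC (44.7%). At WT day 2, where edgeR called none, 1 member had an unadjusted p under 0.05 and DESeq2 called 1. Between days 2 and 4, none was called in D/KO cells (9.57%), 4 in D/KO cells with VC (15.6%), 1 in WT cells (21.5%) and none in WT cells with VC (20.1%). At the first and last of these, 3 and 1 members had an unadjusted p under 0.05 in edgeR, and DESeq2 called 1 at each. VC against no VC gave 3 at day 0 (26.1%), 3 at day 2 (25.3%) and 4 at day 4 (34.5%) in D/KO cells, and 2 at day 0 (29.4%), 2 at day 2 (26.6%) and 2 at day 4 (22.4%) in WT cells. The D/KO change differed from the WT change for 1 member at day 2 (6.54%), 1 at day 4 (14.3%), none at D2+VC (13.9%, with 2 unadjusted in edgeR and 0 by DESeq2) and 3 at D4+VC (29.4%). D/KO and WT day 0 differed for 3 members (43.2%). Cldn3, whose entry rested on D/KO D4+VC, is 1 of the members counted in each D/KO comparison with that group or with D2+VC and in the genotype difference at D4+VC. With 5 genes tested such counts carry little weight, and days 2 and 4 share their day 0 libraries.

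The wider tight junction set was counted at D/KO D4+VC against D0+VC, where the median log2 fold change of all tested genes was 0.01, and 27.9% of them rose and 26.2% fell. Of 20 other claudins 5 were tested, and 2 rose and 3 fell (median -0.62). Cldn11, the claudin of myelin and Sertoli cells, rose from 1 to 85 summed counts, while Cldn5 fell by 3.93 and Cldn10 by 1.67 on the log2 scale. Cldn10 moved the other way without VC, with 0, 15 and 10 summed counts at days 0, 2 and 4 in D/KO cells against 45, 51 and 18 with VC. Without VC the median of the 5 other claudins at D/KO day 4 was 1.48. Of 21 other membrane and scaffold genes of the junction 18 were tested, and 10 rose and 6 fell (median 0.73). The 3 largest changes were rises of Lsr (4.84) and Marveld2 (3.02), proteins of contacts between 3 cells, and of Ildr2 (2.99), a relative of Lsr. Of 14 polarity genes 13 were tested, and 7 rose and 1 fell (median 0.39), with Prkcz, an atypical protein kinase C, at 1.71, Llgl2 at 1.02 and Patj at 0.77.

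Epithelial partners and regulators were counted in the same comparison. Of 12 epithelial partners 5 were tested, and 4 rose and none fell (median 3.06). Cdh1 went from 2 to 2479 summed counts (log2 fold change 9.69 ± 0.44), and the membrane protease St14 rose by 3.06. Of 14 transcription factors known to activate junction genes 7 were tested, and 4 rose and 1 fell (median 2.20). Ehf went from 0 to 237 summed counts (at least 60.8-fold), Grhl3 rose by 5.59, and Klf5 fell by 2.93. Klf4, which the cassette itself carries, was among the rises in both genotypes (2.20 in D/KO and 1.65 in WT cells). All 6 repressors were tested, and 5 fell and none rose (median -0.40), with Twist2 at -1.76, Snai1 at -1.36 and Zeb2 at -0.50. The fibroblast marker sum went from 183700 to 253200 CPM at D/KO D0+VC to 33140 to 34340 at D4+VC, and its part in these list changes was not tested. The same lists in WT cells at D4+VC, where the median of all tested genes was 0.03 and 22.7% rose and 22% fell, had 1 rise and 1 fall among other claudins, 7 and 5 among membrane and scaffold genes, 5 and 3 among polarity genes, 1 and 2 among epithelial partners, 4 and 1 among activators and 1 and 2 among repressors. Cdh1 held 9 summed counts in WT D4+VC. No test compared a list with other genes.

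Over the 36 reprogramming libraries, the genes whose log2 CPM followed each member most closely were read as a description, since libraries of 1 group share their treatment. F11r was closest to Tie1 (Pearson's r = 0.977), Tal1 (0.976) and She (0.976), of which Tie1 is an endothelial receptor and Tal1 a factor of blood and endothelial lineages. Cldn1 was closest to Plac9 (0.944), Thbd (0.917) and Pde9a (0.916), and Cldn3 to Bmp15 (0.949), Alox12b (0.923) and Lrrc26 (0.912). Tjp1 followed Garre1 (0.937), Arap2 (0.917) and Mtor (0.915), and Ocln had no closer gene than Apol6 (0.671). Among the members themselves the highest was Cldn3 with F11r (0.539) and the lowest Ocln with Tjp1 (-0.489).

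**Figure D4:**
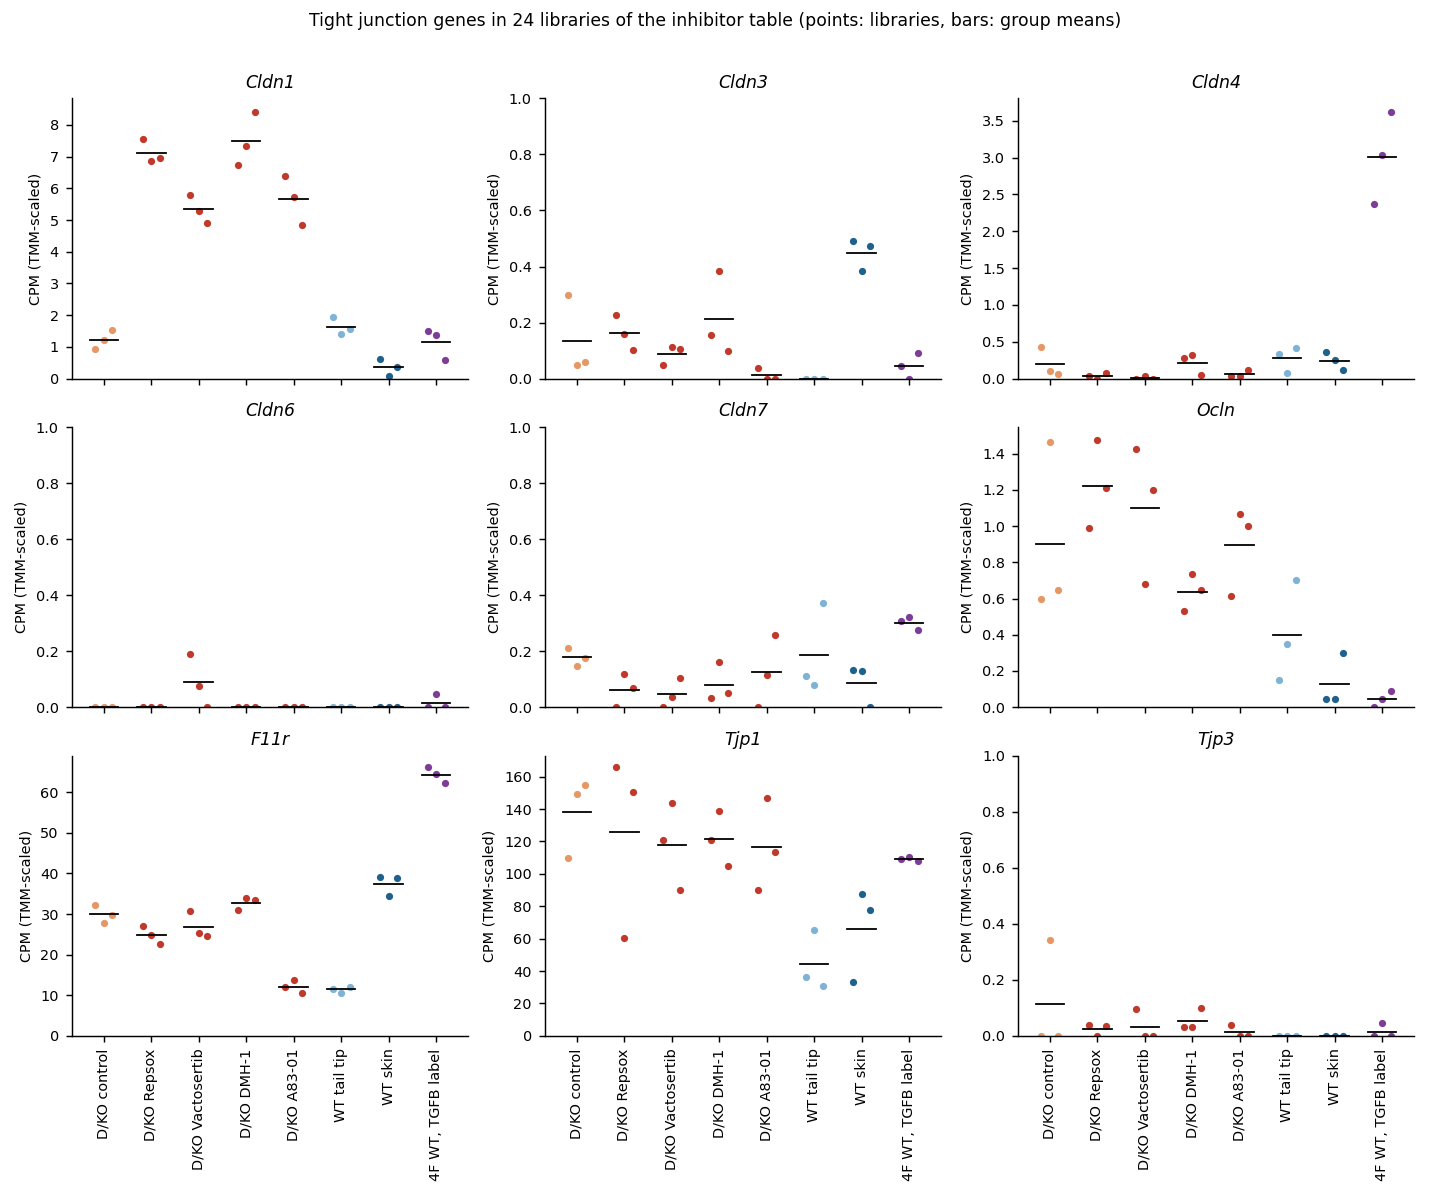
CPM (TMM-scaled, linear axis) of the 9 genes in the 24 libraries of the inhibitor table; points are libraries and bars are means of 3, with a separate axis for each gene. Cldn1 lies between 4.84 and 8.42 CPM in the 12 libraries with an inhibitor and at most at 1.54 in the D/KO control, and F11r is lowest in A83-01 and WT tail tip.

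Cldn1 rose with all 4 inhibitors in D/KO cells. The control libraries held 0.937, 1.22 and 1.54 CPM, the Repsox libraries 7.54, 6.85 and 6.97, the Vactosertib libraries 5.80, 5.30 and 4.91, the DMH-1 libraries 6.74, 7.34 and 8.42, and the A83-01 libraries 6.39, 5.73 and 4.84. Every library with an inhibitor lay above every control library. The log2 fold changes were 2.55 ± 0.19 with Repsox, 2.14 ± 0.19 with Vactosertib, 2.62 ± 0.19 with DMH-1 and 2.21 ± 0.19 with A83-01 (edgeR adjusted p = 4.19e-08, 5.02e-07, 1.92e-07 and 1.37e-07), all against the same 3 control libraries. The calls were kept without any 1 library (range 1.96 to 2.80 over the 4). The fibroblast marker sum was 79230 to 84490 CPM in the control, 40700 to 48240 with Repsox, 49120 to 52600 with Vactosertib, 42460 to 45180 with A83-01 and 68180 to 85790 with DMH-1, and its part in the result was not tested. WT tail tip fibroblasts held 1.94, 1.40 and 1.56 CPM, which overlapped the D/KO control (log2 difference 0.41, edgeR adjusted p = 0.121).

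F11r fell with A83-01 and with no other inhibitor by this test. The control held 32.2, 27.8 and 29.8 CPM and the A83-01 libraries 12.1, 13.8 and 10.5, with no overlap, a log2 fold change of -1.31 ± 0.12 (edgeR adjusted p = 3.04e-07). Repsox (27.0, 24.7 and 22.6 CPM) gave -0.27 (edgeR adjusted p = 0.103), Vactosertib -0.14 and DMH-1 0.13. The Repsox libraries all lay below the control libraries, while the ranges with Vactosertib (24.6 to 30.7 CPM) and DMH-1 (30.9 to 33.9 CPM) overlapped the control. The summed endothelial markers were 391.6 to 424.0 CPM in the control, 177.1 to 224.4 with A83-01, 325.3 to 466.1 with Repsox, 370.8 to 455.3 with Vactosertib and 460.4 to 548.6 with DMH-1. Not every marker went with the sum under A83-01. Tek was higher (14.6 to 17.4 CPM in the control, 34.5 to 34.9 with A83-01), Cldn5 overlapped the control, and the other markers were lower. The part of these markers in the result was not tested. Untreated WT tail tip fibroblasts held 11.6, 10.6 and 12.1 CPM of F11r, below the D/KO control by -1.40 (edgeR adjusted p = 8.59e-08), with an endothelial sum of 86.0 to 102.9. These cells also differed in age from the D/KO control, so genotype and age cannot be told apart.

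The inhibitors were given at different doses, so only the 2 pairs at the same dose were compared, A83-01 with DMH-1 at 1 µM and Repsox with Vactosertib at 0.1 µM. A83-01 inhibits ALK5 and DMH-1 ALK2. F11r was lower with A83-01 than with DMH-1 by -1.44 (95% interval -1.69 to -1.18, edgeR adjusted p = 1.44e-07). For Cldn1 the difference was -0.41 (-0.76 to -0.07, edgeR adjusted p = 0.0767). Repsox, an ALK5 inhibitor, and Vactosertib, listed for ALK5 and ALK2, differed in Cldn1 by 0.41 (0.06 to 0.75, edgeR adjusted p = 1) and in F11r by -0.13 (-0.38 to 0.12, edgeR adjusted p = 1). Ocln and Tjp1 were not called with any inhibitor or in either pair. Their changes against the control ran from -0.50 to 0.43 for Ocln and from -0.24 to -0.14 for Tjp1, with intervals of -0.93 to 0.44 for Tjp1 with A83-01. Repsox library 2 stood low in Tjp1, at 60.6 CPM against 166.2 and 150.7, and apart from libraries 1 and 3 over all genes (chi-square per degree of freedom 151.6 and 163.1, against 5.23 between those). The Tjp1 change with Repsox ran from -0.39 to 0.19 when 1 library was left out, and was above 0 without that library.

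Cldn3 and Cldn4 were too sparse to test in the fit of the control, inhibitor and WT tail tip libraries. Cldn3 held 7, 1 and 1 counts in the control, 6, 4 and 3 with Repsox, 1, 3 and 2 with Vactosertib, 5, 12 and 2 with DMH-1 and 1, 0 and 0 with A83-01. Cldn4 held 10, 2 and 1 in the control and from 0 to 10 in a library with an inhibitor. In counts each inhibitor group met or overlapped the range of the control. Of the 4 members tested, 1 was called with Repsox (25.2% of all tested genes), 1 with Vactosertib (22.1%), 1 with DMH-1 (9.75%) and 2 with A83-01 (32.6%). Between A83-01 and DMH-1 1 was called (25.4%), and between Repsox and Vactosertib none (0% of all genes by edgeR, with 452 genes, 1 member among them, at an unadjusted p under 0.05, and 8 genes by DESeq2). WT and D/KO controls differed for 2 members (40.2%), of which Tjp1 was lower in WT cells by -1.66 (36.6, 65.2 and 31.0 against 110.0, 149.5 and 155.1 CPM, edgeR adjusted p = 0.00075). Genotype and age change together in this comparison.

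Among the wider lists under the inhibitors, other claudins had 2 rises and no fall of 4 tested with each inhibitor. Cldn15, a claudin of the intestine that passes cations, rose with all 4 (log2 fold changes 1.59, 1.76, 0.97 and 1.45 for Repsox, Vactosertib, DMH-1 and A83-01), and Cldn19 with Repsox, Vactosertib and A83-01 (3.10, 3.18 and 2.76). Of 16 membrane and scaffold genes tested, A83-01 raised 5 and lowered 6, Repsox and Vactosertib each raised 3 and lowered 3, and DMH-1 raised 1. Of all tested genes A83-01 raised 16.4% and lowered 16.2%, Repsox 13.4% and 11.8%, Vactosertib 11.8% and 10.3%, and DMH-1 5.96% and 3.79%. Jam2, a relative of F11r, rose with all 4, by 1.68, 1.44, 0.72 and 2.22 in the same order. Cdh1 had 0 counts in the D/KO control and in the libraries of every inhibitor group. These genes were named after their values were seen.

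F11r and Cldn1 differed between skin and tail tip in untreated WT fibroblasts. Skin library 1 stood apart from libraries 2 and 3 (chi-square per degree of freedom over genes 365.6 and 278.3, against 5.94 between those). Skin fibroblasts held 39.0, 34.4 and 38.9 CPM of F11r against 11.6, 10.6 and 12.1 in tail tip (log2 difference 1.71 ± 0.12, edgeR adjusted p = 4.45e-10), and 0.626, 0.085 and 0.356 CPM of Cldn1 against 1.94, 1.40 and 1.56 (-2.20 ± 0.39, edgeR adjusted p = 0.000151). Neither gene overlapped between the sources, and both calls were kept without any 1 library (1.66 to 1.77 for F11r and -2.99 to -1.69 for Cldn1). Cldn3 held 11, 9 and 8 counts in skin and 0 in every tail tip library, at least 11.4-fold higher. Cldn4 (8, 6 and 2 against 9, 2 and 10 counts), Ocln and Tjp1 were not called. Tjp1 (0.58) was called without skin library 1 (0.90), and Ocln (-1.73) without skin library 3 (-3.04) or tail tip library 1 (-2.13). The endothelial sum was 243.4 to 306.3 CPM in skin and 86.0 to 102.9 in tail tip, and the simple epithelial sum 70.1 to 126.5 and 14.6 to 29.3. Most of the latter was Krt19 (43.1 to 97.8 CPM in skin, 13.3 to 27.0 in tail tip), and Krt7 was 26.0 to 28.1 in skin and 0.746 to 1.77 in tail tip. The part of these markers in the results was not tested. Of the 5 members tested 2 were called, where 34.2% of all tested genes were.

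The 3 libraries labelled TGFB, which have no matched control here and entered no comparison, held the most Cldn4 and F11r of the inhibitor table. Cldn4 was at 54, 66 and 79 counts against at most 10 in the other 21 libraries. F11r was at 66.2, 64.4 and 62.2 CPM against at most 39.0 elsewhere, and the endothelial sum there was 3.00 to 4.40 CPM with Cldn5 at 0. Ocln was at 0, 1 and 2 counts. WT day 0 cells of the same genotype label had no count of Cldn4 and 2.27 to 2.81 CPM of F11r in the reprogramming table, values from a separate table that are set side by side without a test. Cldn1 (1.49, 1.38 and 0.596 CPM) overlapped the D/KO control and WT tail tip libraries.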

How the data were processed

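Polyadenylated RNA was sequenced as paired reads of 150 bases. The authors deposited 2 tables of raw counts per gene (36 and 24 libraries), made, per the submitters' processing notes, with Trim Galore, HISAT2 and featureCounts on GRCm39; versions, annotation release and strandedness are not given in the sources used here. Multi-mapped reads of related claudins may therefore be counted or lost unequally.

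Genes were filtered with filterByExpr (minimum count 10, minimum total 15), scaled by TMM and tested with edgeR 4.0.16 in R 4.3.3 (quasi-likelihood F-test, Benjamini-Hochberg adjustment over 15832 genes of the reprogramming table, 15164 of the 18 inhibitor, control and WT tail tip libraries, and 15652 of all 24 for skin against tail tip). There were 31 comparisons. Library totals set a filter of 0.577 and 0.411 CPM. Counting ratios have exact 95% binomial intervals (scipy 1.17.1), and a group at 0 was given a floor of 3 counts. On simulated counts, 78 of 100 genes changed 2-fold were recovered for D/KO D4+VC against D0+VC (15176 genes), and 76 of 100 for A83-01 against control (14875 genes). The changed genes were drawn only from those above a minimum mean count. Ocln and Cldn3 did not reach it in the reprogramming table, so the rate there does not cover them.

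The 9 genes, the wider lists and the markers were chosen with earlier results of these data known. All 9 were described; of each wider list, the 3 called genes with the largest absolute log2 fold change at D/KO D4+VC were named (1 such gene is not reported here, and other named genes were picked after their values were seen), and for likeness up to 3 genes with the highest Pearson correlation of log2 CPM (prior count 2). Alternatives were DESeq2 1.42.0, its size factors, no filter, only the groups compared, an absolute log2 fold change of 1 or more as a further threshold, the D0 libraries without VC as baseline for the groups with VC, all 24 libraries, and each library left out. Libraries of a group differed by more than sampling noise. The keratinocyte marker Lor was not found by that name in the tables. Protein sequences were not used here.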

Additional observations from a re-analysis of the deposited data

Results flagged for a closer look

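The Cldn1 change was larger in D/KO than in WT cells by a test of the difference itself, by 1.36 at day 2 and 1.79 at day 4 without VC and by 2.16 at day 4 with VC (log2 differences of the changes, edgeR adjusted p = 0.0128, 0.000364 and 0.0134). The day 2 call was lost without D/KO day 0 library 3 (0.98), and the day 4 call with VC without D/KO D0+VC library 1 (1.80) or WT D0+VC library 2 (1.63). The Tjp1 change at day 4 with VC was larger in D/KO cells by 0.76 (edgeR adjusted p = 0.0106) against D0+VC, while against day 0 without VC the change was 0.48 for D/KO and 0.45 for WT. For Cldn3 the changes at day 4 with VC differed with an adjusted p of 0.000913 in edgeR, and no fold is given because WT D4+VC was at 0 counts. Cldn3 was tested only because the D/KO D4+VC libraries passed the filter, so this p is no support for a difference. Genotype cannot be told apart from line, sex and age in these differences.

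In the libraries labelled TGFB, which enter no comparison, Cldn4 had a mean of 3.01 CPM and F11r a mean of 64.3 CPM, and all 3 libraries lay above the highest of the 9 control libraries of that table for both genes. No group had more than 3 libraries, so single outlying libraries were not tested for.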

How the results depend on the processing

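All 136 log2 fold changes of the members kept their direction and side of the threshold with DESeq2's size factors, and no called change turned direction under DESeq2, no filter, only the groups compared, all 24 libraries or the loss of any 1 library, although changes that were not called did turn when a library was left out. Against day 0 without VC, 4 turned: Cldn1 in WT cells at D2+VC (-1.10) and D4+VC (-1.42), and F11r there (-1.22 and -0.44). With that baseline 2 members were called at WT D4+VC.

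Counts of members called moved by more than 1.5 times as follows, with smaller moves left out. With DESeq2, 1 was called at WT day 2, 1 between D/KO days 2 and 4, 2 between WT days 2 and 4 and 1 between these days with VC. With a log2 fold change of at least 1, 1 member passed at day 2 and 2 at day 4 in D/KO cells, 1 at WT D2+VC, 0 between WT days 2 and 4, and 1 for VC at WT day 4. In fits of only the groups compared, 2 were called at D/KO day 4, 1 at WT day 2, 1 for VC at WT day 2, and 2 and 1 for the genotype difference at day 4 and at D2+VC. With no filter, 1 was called between WT days 2 and 4 with VC and 2 for the genotype difference at day 4. With all 24 libraries 2 were called for Vactosertib. The added call was Cldn4, which passed that filter only through the libraries labelled TGFB. Leaving out 1 library gave 1 to 2 at D/KO day 2, WT day 4, WT D2+VC, between WT days 2 and 4, and for the genotype difference at day 4, 2 to 4 at WT D4+VC, 2 to 5 between D/KO days 2 and 4 with VC, 1 to 3 for VC at WT day 2, and 0 to 1 between WT days 2 and 4 with VC and for the genotype differences at day 2 and at D2+VC. Ocln gained no call between D/KO days 2 and 4 with VC, so the count of 5 includes a member not tested in the main fit. The cause of these moves was not tested.

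No paired analysis was possible because the library numbers run on through the series, so the groups share no replicate numbers. Depth limits Cldn3, Cldn4, Cldn6, Cldn7, Ocln and Tjp3, most of whose libraries held under 30 counts.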
